A study of Mus musculus with 18 samples.

Results

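MHC class I and antigen processing genes are described here in mouse splenic natural killer (NK) cells, for 9 genes chosen by symbol in a table of 55487 genes: H2-K1, H2-D1, H2-Q7, H2-T23, B2m, Tap1, Tap2, Tapbp and Nlrc5. All 9 were found, and all 9 passed the filter on low counts that left 14864 genes for testing. The choice drew on earlier results of these data, among them the level of H2-D1 in primed wild-type replicate 3, so every comparison with the primed wild-type libraries is given as a description without a test. RNA was sequenced from YFP-positive NK cells sorted from spleen, in 18 libraries of 6 groups with 3 libraries each. The knock-out (KO) groups carried Acly fl/fl together with Rosa YFP/YFP and Ncr1 CRE-ERT2, which lose ATP-citrate lyase, a cytosolic enzyme that turns citrate into acetyl-CoA. The wild-type (WT) groups carried Rosa YFP/YFP and Ncr1 CRE-ERT2 without the floxed allele, so both genotypes have the inducible Cre, driven from the NK gene Ncr1, and the YFP reporter. All mice of both genotypes ate a tamoxifen diet for 48 hours, and cells were sorted 5 days after its withdrawal. In each genotype the cells were fresh, primed for 72 hours with 100 ng/ml of IL-15, or primed in that way, washed and then stimulated for 6 hours with plate-bound NKG2D reagent at 20 ug/ml. The labels give no age, and it is not stated that replicates come from separate animals; the p-values therefore rest on the spread among libraries, which may be technical.

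An MHC class I molecule holds a heavy chain, the light chain beta-2-microglobulin (B2m) and a short peptide. H2-K1 and H2-D1 encode classical heavy chains that show peptides to CD8 T cells, H2-Q7 encodes a chain of the Qa-2 family, and H2-T23 encodes Qa-1, the ligand of the CD94/NKG2A receptor. Tap1 and Tap2 form the pump that brings peptides into the endoplasmic reticulum, and Tapbp encodes tapasin, which holds empty class I molecules to that pump. Nlrc5 encodes a transactivator of class I genes that acts together with the RFX factors. NK cells carry class I on their own surface, and class I on other cells restrains them through Ly49 receptors and CD94/NKG2A.

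In the GENCODE annotation of GRCm38 (the assembly also called mm10), 7 of the 9 genes lie on chromosome 17: H2-K1 at chr17:33996017-34000347 on the minus strand, H2-D1 at chr17:35262730-35267499 on the plus strand, H2-Q7 at chr17:35439155-35443773 (plus), H2-T23 at chr17:36029773-36032855 (minus), Tap1 at chr17:34187553-34197225 (plus), Tap2 at chr17:34203527-34216321 (plus) and Tapbp at chr17:33915899-33929292 (plus). B2m lies at chr2:122147686-122153083 (plus) and Nlrc5 at chr8:94434356-94527272 (plus). RefSeq promoters (GRCm38.p6) were matched by symbol for 7 of the 9 genes, all but Tap2 and Nlrc5. The 250 bases before the RefSeq start are shown for H2-K1, H2-D1 and H2-Q7, whose promoters share an arrangement of matches, and for B2m, which had no match to the 2 patterns as spelt here. Capitals mark matches to a kappaB-type motif (GGGANNNCC) and to an interferon-stimulated response element, ISRE (GAANNGAAA, here on the opposite strand). The windows are chr17:34000348-34000597 (minus), chr17:35262844-35263093 (plus), chr17:35438905-35439154 (plus) and chr2:122147437-122147686 (plus).

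H2-K1: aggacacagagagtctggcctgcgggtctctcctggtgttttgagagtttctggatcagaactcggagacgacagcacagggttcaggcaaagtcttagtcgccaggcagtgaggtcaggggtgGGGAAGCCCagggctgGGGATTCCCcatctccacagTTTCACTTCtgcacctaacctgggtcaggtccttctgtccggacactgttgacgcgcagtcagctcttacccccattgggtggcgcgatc
H2-D1: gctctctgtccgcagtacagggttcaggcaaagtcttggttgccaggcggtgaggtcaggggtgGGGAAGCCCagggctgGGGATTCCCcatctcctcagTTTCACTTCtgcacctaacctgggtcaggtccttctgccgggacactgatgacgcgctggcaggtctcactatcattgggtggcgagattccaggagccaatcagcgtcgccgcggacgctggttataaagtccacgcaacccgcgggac
H2-Q7: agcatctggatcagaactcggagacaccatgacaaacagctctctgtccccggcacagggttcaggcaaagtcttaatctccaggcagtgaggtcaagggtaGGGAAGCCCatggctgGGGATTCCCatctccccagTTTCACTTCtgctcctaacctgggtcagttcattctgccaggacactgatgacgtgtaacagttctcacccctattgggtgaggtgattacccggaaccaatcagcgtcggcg
B2m: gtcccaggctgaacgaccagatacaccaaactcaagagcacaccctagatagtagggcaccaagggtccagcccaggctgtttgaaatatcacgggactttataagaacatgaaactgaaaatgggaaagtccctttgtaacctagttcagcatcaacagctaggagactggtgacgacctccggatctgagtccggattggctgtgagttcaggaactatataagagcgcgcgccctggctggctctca

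H2-K1, H2-D1 and H2-Q7 each held 2 kappaB-type matches followed by 1 ISRE match, and the same letters were matched in all 3. The ISRE match started 90 bases before the start in H2-K1, 150 in H2-D1 and 113 in H2-Q7. Of 27025 promoters of this length, searched on both strands, 15.5% held the kappaB-type motif and 6.34% held the ISRE, and the matches marked in the 3 promoters did not overlap. The Y box core (ATTGG), bound by NF-Y, was in 7 of 7 matched promoters, against 34.5% of all promoters. The promoters of H2-K1, H2-D1 and H2-Q7 are alike in their letters, so the 7 are not separate counts. The Y box match lay 222 bases before the start in Tap1, and 248 and 165 in Tapbp. The RefSeq windows of H2-D1 and Tapbp lie inside the GENCODE bounds of these genes. The interferon-gamma activated sequence (TTCNNNGAA) was in 0 of 7, against 7.18% of all promoters. A match is a description of the letters in this window, and the absence of one in B2m depends on the length and letters of the pattern searched. The B2m window holds gaaactgaaa and gggaaagtcc, which fit the ISRE and the kappaB-type pattern with 1 more base in the gap. Such spellings were not searched, so B2m is not shown to lack these motifs. H2-D1, H2-K1 and H2-Q7 thus share these motifs, while their levels across the libraries differed as given below.

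Totals ran from 14772350 estimated reads, in primed KO replicate 1, to 34367582. Primed KO replicate 1 also had a read in the fewest genes, 14695, against 17877 to 19668 in the other libraries. It was the lowest library of its group in every member but H2-D1. The part of its depth and detection in these levels was not tested. Acly was at 15.3 to 48.9 CPM (counts scaled to the library size) over the KO libraries and at 128 to 279.6 CPM over the WT libraries. The NK cell markers were detected in all groups: their sum over 8 genes was 15443 to 16754 CPM in fresh KO and 13406 to 14948 CPM in fresh WT, 8876 to 10529 CPM in primed KO and 8289 to 9565 CPM in primed WT, and 5526 to 6736 CPM in NKG2D-stimulated KO and 5661 to 6769 CPM in NKG2D-stimulated WT. In a comparison of each library with both others of its group over 7958 genes of at least moderate level (log2 CPM averaging 3 or more), primed WT replicate 3 was over 4-fold above both in 92 genes (1.16%). NKG2D-stimulated KO replicate 1 was over 4-fold below both in 28 genes (0.352%), and each of the other 16 libraries stood apart in this way in 0 to 9 genes in either direction. H2-D1 is 1 of the genes that set primed WT replicate 3 apart, so its values are given with and without that library. In bulk RNA of this kind, fewer cells of a type and less RNA per cell cannot be told apart.

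**Figure D1:**
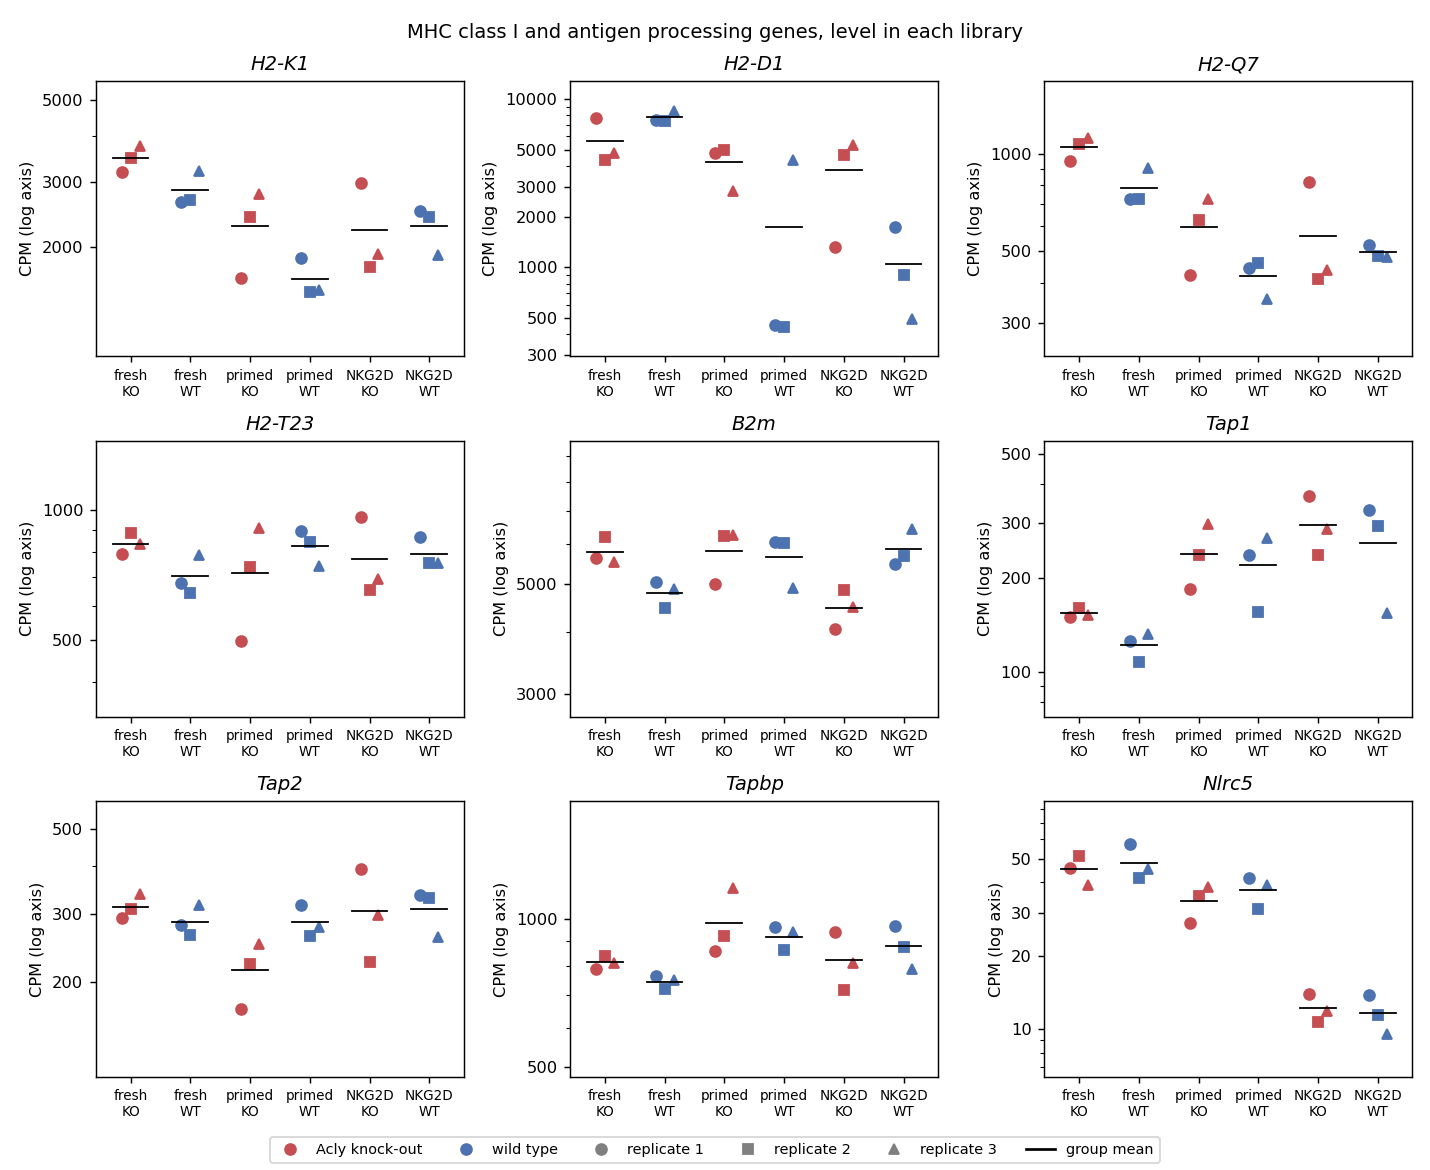
Level of each of the 9 genes in each library, in CPM on a log axis. KO groups (red) stand left of WT groups (blue), the marker shape gives the replicate number and the bar is the group mean. H2-D1 spans 444 to 4338 CPM in primed WT, and Nlrc5 is at 9.6 to 14 CPM in the 6 NKG2D-stimulated libraries.

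H2-D1 had the widest ratio of highest to lowest library of the 9 genes in fresh KO, primed WT and both NKG2D-stimulated groups, but not in primed KO or fresh WT. In fresh cells it was at 7680.1, 4333 and 4740.4 CPM in KO and at 7449.8, 7431 and 8497 CPM in WT. In primed cells it was at 4796, 4966 and 2835 CPM in KO and at 452, 444 and 4338 CPM in WT. After NKG2D stimulation it was at 1314, 4636 and 5324 CPM in KO and at 1734, 899.6 and 496 CPM in WT. The genotype groups overlapped in each condition. Fresh KO replicate 1 and NKG2D-stimulated KO replicate 1 lay at the level of the WT libraries, and primed WT replicate 3 at the level of the KO libraries. In the cultured conditions 1 library of each genotype crossed the other. Primed WT replicate 3 lay above KO replicate 3, and NKG2D-stimulated KO replicate 1 lay below WT replicate 1. Primed WT replicates 1 and 2 were the lowest of all libraries. The log2 levels in the authors' deposited tables differed from those computed here by at most 0.06 for H2-D1, so the value of primed WT replicate 3 stands in both.

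The ratio of the highest to the lowest H2-D1 level was 9.75 in primed WT, larger than in 99.8% of the 7958 genes. The level of primed WT replicate 3 was among the values that chose the genes, so this rank supports nothing. The H2-D1 ratio was 4.05 in NKG2D-stimulated KO and 3.49 in NKG2D-stimulated WT, in each case larger than in 99.5% of genes. In fresh cells the ratio was 1.77 in KO (larger than in 98.6% of genes) and 1.14 in WT (larger than in 38% of genes), where Nlrc5 reached 1.37. In primed KO it was 1.75, larger than in 90.6% of genes, where H2-T23 reached 1.82. No other member of the 9 reached a ratio above 2.13 in any group; that value was Tap1 in NKG2D-stimulated WT.

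With all libraries, the fitted H2-D1 difference between primed KO and primed WT was a log2 fold change of 1.27, and without primed WT replicate 3 it was 3.22. Primed against fresh WT cells it was -2.16, and -4.11 without that replicate. NKG2D-stimulated against primed WT cells it was -0.74, and without that replicate the sign turned, at 1.22. H2-D1 in NKG2D-stimulated against fresh WT cells, a comparison without that library's own values, fell by 2.90 in log2 (SE 0.738, adjusted p = 0.00321 by edgeR's quasi-likelihood test), with all 3 stimulated libraries below all 3 fresh libraries. In KO cells the same comparison gave -0.57 (SE 0.689, 95% interval -2.02 to 0.88, adjusted p = 0.545 by edgeR), and the groups overlapped. The difference between these responses, KO minus WT, was 2.33 (SE 0.984, adjusted p = 0.122 by edgeR), and the NKG2D-stimulated KO and WT cells differed by 1.85 (SE 0.709, 95% interval 0.35 to 3.34, adjusted p = 0.0806 by edgeR). Both missed the threshold of 0.05, and both passed without the filter on low counts, with limma voom and when fitted to their own libraries alone. The fit to their own libraries leaves out primed WT replicate 3, so its p-values carry the limit given below for that library. Limma voom weighted libraries by quality, so its spread also differs from that of the main fit. With each library left out in turn, the difference of responses ran from 1.95 to 2.90, with adjusted p up to 0.269 by edgeR. The difference between NKG2D-stimulated KO and WT ran from 1.49 to 2.43, with adjusted p up to 0.249 by edgeR. Its value of 2.43, without NKG2D-stimulated WT replicate 1, missed the threshold. Without NKG2D-stimulated KO replicate 1 the difference between NKG2D-stimulated KO and WT was 2.26 (adjusted p = 0.036 by edgeR). Without primed WT replicate 3 it was 1.85 (adjusted p = 0.00679 by edgeR) and the difference of responses 2.32 (adjusted p = 0.014), but these p-values support nothing: that library enters only through the shared spread, its H2-D1 level was among the values that chose the genes, and leaving it out narrows the spread by construction.

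Between genotypes in fresh cells, H2-D1 gave -0.48 (SE 0.688, adjusted p = 0.831 by edgeR). In KO cells it gave -0.41 (adjusted p = 0.645) for primed against fresh and -0.16 (adjusted p = 0.884) for NKG2D-stimulated against primed. By group mean, H2-D1 ordered as fresh WT, fresh KO, primed KO, NKG2D-stimulated KO, primed WT and NKG2D-stimulated WT, at 7793 ± 610.3, 5585 ± 1826, 4199 ± 1184, 3758 ± 2145, 1745 ± 2246 and 1043 ± 631 CPM (SD, n = 3 each). Each neighbouring pair in this order overlapped in its library values.

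The genes whose profile over the 18 libraries was nearest to that of H2-D1 were Atg4d, which encodes an autophagy protease, Jak3, the kinase of the common gamma chain of cytokine receptors, and Zfpl1, which encodes a Golgi protein. Likeness was measured as the root mean square difference of log2 CPM after each gene was centred on its own mean. It was 0.38 for Atg4d and 0.4 for Jak3 and Zfpl1, where H2-D1 itself spread by 1.44. Jak3 was at 3.78, 3.82 and 64.6 CPM in primed WT. Atg4d was at 5.29, 4.04 and 25.3 CPM and Zfpl1 at 3.31, 3.11 and 33 CPM in the same libraries. All 3 genes were high in primed WT replicate 3 alone of that group, as H2-D1 was. This follows from their choice by likeness to H2-D1 over the same libraries and supports nothing further. Pdia3, which encodes a thiol oxidoreductase of the peptide-loading complex and was picked after its values were seen, was at 139, 129 and 1236 CPM in primed WT. It was at 72.3, 702 and 748 CPM in NKG2D-stimulated KO and at 137, 103 and 113 CPM in NKG2D-stimulated WT, so primed WT replicate 3 and NKG2D-stimulated KO replicate 1 stood apart from their groups in Pdia3 as in H2-D1. In primed KO it was at 848, 333 and 173 CPM, where H2-D1 was at 4796, 4966 and 2835 CPM, so the highest library was not the same. In fresh cells Pdia3 was at 284, 132 and 112 CPM in KO and at 890.1, 759 and 592 CPM in WT, without overlap, where H2-D1 overlapped.

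**Figure D2:**
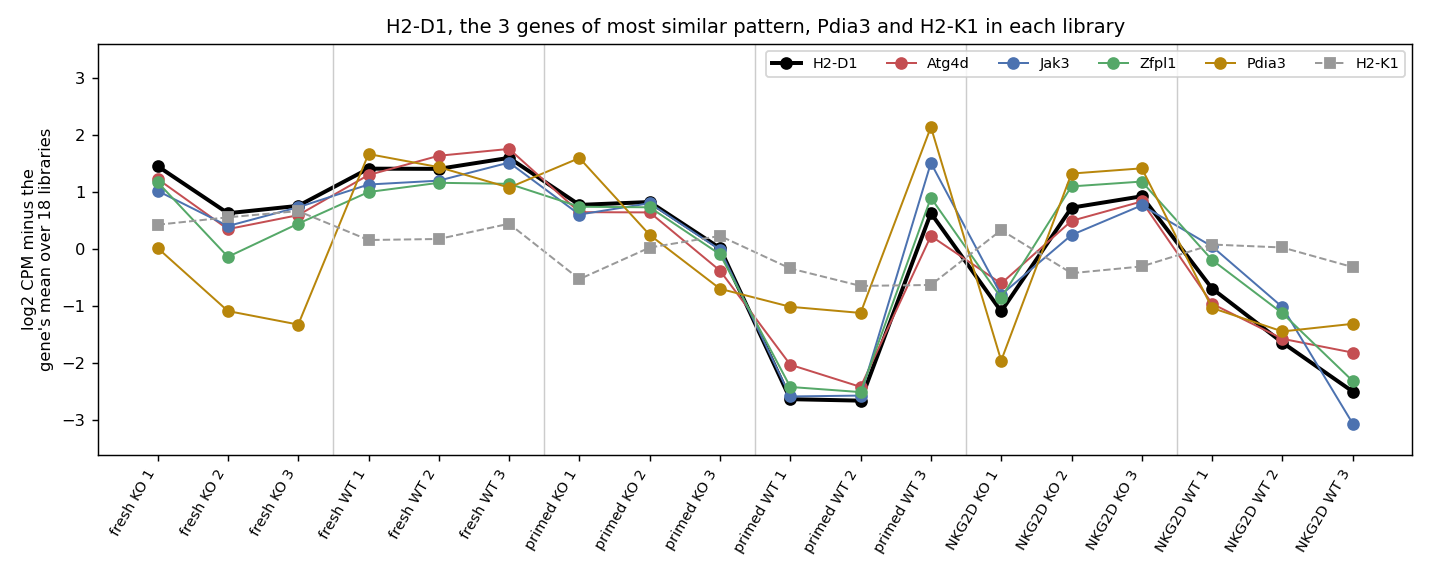
Log2 CPM of H2-D1, of the 3 genes with the nearest profile (Atg4d, Jak3, Zfpl1), of Pdia3 and of H2-K1 in each of the 18 libraries, each gene centred on its own mean, with KO left of WT in each condition. H2-D1, Atg4d, Jak3, Zfpl1 and Pdia3 are high in primed WT replicate 3 and low in replicates 1 and 2, while H2-K1 is level across those 3 libraries. Atg4d, Jak3 and Zfpl1 were chosen for likeness to H2-D1 over these libraries, and Pdia3 after its values were seen.

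H2-K1, the other classical heavy chain gene, did not show this split between libraries. It was at 3189, 3489.6 and 3764 CPM in fresh KO and at 2648, 2682 and 3229 CPM in fresh WT. In primed cells H2-K1 was at 1646, 2417 and 2783 CPM in KO and at 1873, 1516 and 1533 CPM in WT, where replicate 3 lay between the others. After NKG2D stimulation it was at 2988, 1769 and 1921 CPM in KO and at 2507, 2418 and 1905 CPM in WT. The genotypes overlapped in every condition, and every cultured library lay below every fresh library of its genotype. In KO cells H2-K1 fell by 0.61 in log2 with priming (SE 0.199, adjusted p = 0.0175 by edgeR) and was lower by 0.65 in NKG2D-stimulated than in fresh cells (log2 fold change -0.65, SE 0.199, adjusted p = 0.0149 by edgeR). The priming call was lost without fresh KO replicate 2 or 3 or primed KO replicate 1 (-0.57, -0.50 and -0.36), and the other without fresh KO replicate 3 or NKG2D-stimulated KO replicate 2 or 3 (-0.55, -0.50 and -0.51). In WT cells the difference between NKG2D-stimulated and fresh was -0.33 (SE 0.198, adjusted p = 0.179 by edgeR), although the groups did not overlap, and the described difference between primed and fresh was -0.80. The difference of the NKG2D-stimulated-to-fresh responses was -0.32, with a 95% interval of -0.91 to 0.27 (adjusted p = 0.492 by edgeR). Between genotypes H2-K1 gave 0.29 in fresh cells (adjusted p = 0.581), -0.03 after NKG2D (adjusted p = 0.939) and, as a description, 0.48 in primed cells. Limma voom, by contrast, called H2-K1 lower in NKG2D-stimulated KO than WT (-0.29, adjusted p = 0.0469). It also called the difference of responses (-0.59, adjusted p = 0.00762). The WT stimulated-to-fresh difference passed when fitted to its own libraries alone (-0.33, adjusted p = 0.0465 by edgeR).

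H2-Q7 was likewise lower in cultured than in fresh cells. It was at 948, 1073 and 1119 CPM in fresh KO and at 725, 726 and 907 CPM in fresh WT. Primed cells had it at 424, 627 and 727 CPM in KO and at 443, 459.7 and 355 CPM in WT, and after NKG2D at 819, 411 and 438 CPM in KO and at 524, 484 and 482 CPM in WT. All primed and stimulated libraries lay below all fresh libraries of their genotype. In KO cells H2-Q7 fell by 0.82 in log2 with priming (SE 0.222, adjusted p = 0.00558 by edgeR) and was at a log2 fold change of -0.91 in NKG2D-stimulated against fresh cells (SE 0.222, adjusted p = 0.0031). In WT cells the stimulated-to-fresh fall was 0.66 (log2 fold change -0.66, SE 0.222, adjusted p = 0.0186), a call lost without fresh WT replicate 3 (-0.54) or NKG2D-stimulated WT replicate 2 or 3 (-0.63 in each). The difference between these responses was -0.25 (95% interval -0.91 to 0.41, adjusted p = 0.647), while limma voom called it (-0.56, adjusted p = 0.0133). Between fresh genotypes H2-Q7 gave 0.41 (adjusted p = 0.457 by edgeR). That comparison passed with limma voom (0.43, adjusted p = 0.0237) and with its own libraries alone (0.39, adjusted p = 0.0493 by edgeR). H2-Q7 shares 48.6% of the 31-base stretches of its longest transcript with other genes, most with H2-Q5 (28%) and H2-Q6 (25.4%), so its level and theirs are uncertain. H2-Q6, also a Qa-2 chain, gave the same calls: -0.90 for primed against fresh KO (adjusted p = 0.000783), -0.50 for stimulated against fresh KO (adjusted p = 0.0395) and -0.56 for stimulated against fresh WT (adjusted p = 0.0186). H2-Q5 averaged 22.7, 19.2 and 17.1 CPM in fresh, primed and NKG2D-stimulated KO, and 20, 13.3 and 17.6 CPM in WT. As these genes share 31-base stretches with H2-Q7, their levels are not separate evidence. The shares of such stretches were 23.3% for H2-K1, of which 16.9% with H2-D1, and 27.7% for H2-D1, of which 12.9% with H2-K1.

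H2-T23, the Qa-1 gene, did not pass the edgeR test in any of the 7 tested comparisons, with adjusted p-values of 0.304 to 0.909; limma voom called it in 2 of them. It was at 794, 884 and 834 CPM in fresh KO and at 677, 644 and 788 CPM in fresh WT. The primed levels of H2-T23 were 499, 739 and 908 CPM in KO and 895, 844 and 742 CPM in WT. After NKG2D it was at 965, 655 and 691 CPM in KO and at 865, 756 and 755 CPM in WT. Fresh KO libraries lay above fresh WT libraries, with a log2 fold change of 0.25 (95% interval -0.12 to 0.62, adjusted p = 0.588 by edgeR), and the genotypes overlapped in the cultured cells. H2-T23 shares 49% of its 31-base stretches, 25.5% with the pseudogene H2-T-ps.

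B2m was the 1 member whose difference between genotypes passed the test. It was at 5641, 6195 and 5522 CPM in fresh KO and at 5036, 4468 and 4876 CPM in fresh WT, with the KO libraries above. In primed cells B2m was at 4986, 6217 and 6253 CPM in KO and at 6057, 6039 and 4900.2 CPM in WT, with overlap. After NKG2D it was at 4059.5, 4865 and 4487 CPM in KO and at 5479.6, 5679.8 and 6436 CPM in WT, with the KO libraries below. The order of the genotypes in stimulated cells was thus the reverse of that in fresh cells. The NKG2D-stimulated difference was -0.39 in log2, which is 0.762-fold (SE 0.122, adjusted p = 0.0335 by edgeR), and the fresh difference was 0.27 (SE 0.122, adjusted p = 0.364). The stimulated-to-fresh response differed between KO and WT by -0.66 (SE 0.173, 95% interval -1.03 to -0.30, adjusted p = 0.0154 by edgeR). In KO cells B2m was lower after NKG2D than in fresh cells (-0.37, SE 0.122, adjusted p = 0.0213) and than in primed cells (-0.38, SE 0.122, adjusted p = 0.0223). In WT cells the stimulated-to-fresh difference was 0.29 (SE 0.122, adjusted p = 0.0545 by edgeR), with the stimulated libraries above the fresh ones.

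These B2m calls were near the threshold. The NKG2D-stimulated genotype call was lost when any of 8 libraries was left out, namely fresh KO replicate 1, 2 or 3, primed WT replicate 1, NKG2D-stimulated KO replicate 1 or 3 and NKG2D-stimulated WT replicate 2 or 3, with log2 fold changes of -0.48 to -0.31 and adjusted p of 0.022 to 0.168 over all 18 omissions. The difference of responses was lost without fresh KO replicate 2, fresh WT replicate 2 or NKG2D-stimulated WT replicate 3 (-0.59, -0.62 and -0.56). The KO fall against fresh cells was lost without fresh KO replicate 1, 2 or 3, NKG2D-stimulated KO replicate 1 or 3 or NKG2D-stimulated WT replicate 2 (-0.37 to -0.29). The KO fall against primed cells was lost without primed KO replicate 2 or 3 or NKG2D-stimulated KO replicate 1 (-0.33 to -0.31). Fitted to their own libraries alone, 3 of these calls were lost: the genotype difference (-0.40, adjusted p = 0.1) and the KO falls against fresh (-0.33, adjusted p = 0.0669) and primed cells (-0.37, adjusted p = 0.0697). The WT difference, by contrast, passed with RLE factors (0.30, adjusted p = 0.0461 by edgeR), without a filter, with a stricter filter, with DESeq2, with limma voom and with its own libraries alone. B2m kept its sign in each of these comparisons under every omission. B2m shares none of its 31-base stretches with another gene and overlaps Patl2 on the opposite strand without shared exons. In the NKG2D-stimulated groups the 6 T cell markers summed to 13.8 to 16.9 CPM in KO and 27.3 to 48 CPM in WT, with Cd4, Cd8a and Cd8b1 at 0 in KO and Cd8a and Cd8b1 at 0 in WT. The 7 class II genes summed to 81.7 to 119 CPM in KO and 134 to 227 CPM in WT, and 8 markers of monocytes, macrophages and dendritic cells to 284 to 352 CPM in KO and 171 to 188 CPM in WT. Of the last list, Cd68 (log2 fold change 0.73, adjusted p = 0.00261 by edgeR) and Itgam (0.85, adjusted p = 0.00143), which NK cells also express, were higher in KO; Lyz2 and Siglech were at 0 in both genotypes, Adgre1 at 0 in KO and Flt3 at 0 in WT. The part of any of these lists in the B2m difference was not tested. The 5 erythroid markers summed to 16.2 to 18 CPM in fresh KO and 113 to 198 CPM in fresh WT, and their part in the fresh values was not tested.

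**Figure D3:**
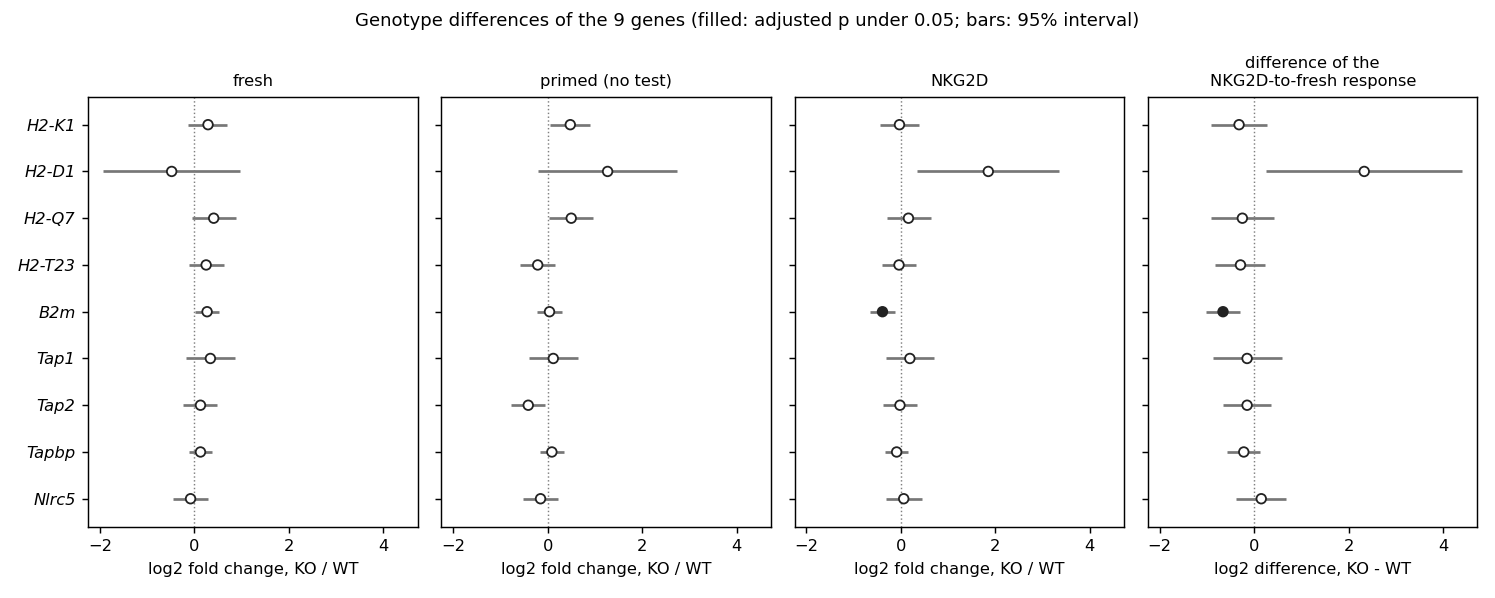
Log2 fold change of KO over WT for the 9 genes in fresh, primed and NKG2D-stimulated cells, and the log2 difference between KO and WT of the response from fresh to NKG2D-stimulated cells. Points are estimates, bars 95% intervals, and filled points passed an adjusted p of 0.05 in edgeR; the primed panel was not tested. B2m is filled in the NKG2D panel (-0.39) and the difference panel (-0.66), and H2-D1 has the widest interval in each panel.

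Tap1 was higher in cultured than in fresh cells of both genotypes. It was at 150.4, 160.2 and 152 CPM in fresh KO and at 125, 108 and 132 CPM in fresh WT. The primed levels were 184, 236 and 298 CPM in KO and 236, 156 and 269 CPM in WT, and the levels after NKG2D were 365, 236 and 287 CPM in KO and 329, 293 and 154 CPM in WT. Every cultured library lay above every fresh library of its genotype. NKG2D-stimulated against fresh cells, Tap1 rose by 0.94 (log2) in KO (SE 0.248, adjusted p = 0.00553 by edgeR) and by 1.09 in WT (SE 0.249, adjusted p = 0.00146), and the difference of these rises was -0.15 (95% interval -0.88 to 0.59, adjusted p = 0.831). Primed against fresh KO cells it rose by 0.63 (SE 0.247, adjusted p = 0.0425), a call lost without fresh KO replicate 1, 2 or 3, fresh WT replicate 1 or 3 or primed KO replicate 2 or 3 (0.48 to 0.70). It was also lost with the replicate number as a block, over all libraries (0.64, adjusted p = 0.0523) or within genotype (0.62, adjusted p = 0.0743). The same comparison in WT cells, as a description, gave 0.85. Tap1 shares 212 exonic bases with Psmb9 on the opposite strand, the gene of an immunoproteasome subunit; the sources used here do not give the strand setting of the counting, and without strand the reads of such pairs cannot be told apart.

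Tap2, the other subunit of the pump, did not follow Tap1. It was at 293, 309.9 and 338 CPM in fresh KO and at 281, 265 and 317 CPM in fresh WT. In primed cells Tap2 was at 171, 224 and 252 CPM in KO and at 316, 263 and 278 CPM in WT, and the primed KO libraries lay below all the primed WT libraries (described difference -0.41). After NKG2D it was at 393, 226 and 298 CPM in KO and at 336, 331 and 263 CPM in WT. In KO cells Tap2 fell by 0.54 in log2 with priming (SE 0.172, adjusted p = 0.0151 by edgeR), a call lost without fresh KO replicate 3 (-0.44) or primed KO replicate 1 (-0.34). It was higher by 0.50 after NKG2D than in primed KO cells (SE 0.172, adjusted p = 0.0298), with overlapping libraries, a call lost without primed KO replicate 1 or 2 or NKG2D-stimulated KO replicate 1 or 3 (0.28 to 0.53), with limma voom (0.30, adjusted p = 0.0539) and with its own libraries alone (0.51, adjusted p = 0.11). In WT cells the stimulated-to-fresh difference was 0.11 (adjusted p = 0.614) and the described primed-to-fresh difference -0.01. Tap2 shares 533 exonic bases with Gm15821 and 165 with Gm20496, both on the opposite strand.

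Tapbp, the tapasin gene, was the member with the narrowest spread over the 18 libraries. It was at 792, 842 and 815 CPM in fresh KO and at 764, 719 and 749.5 CPM in fresh WT. The primed levels of Tapbp were 861, 922 and 1151 CPM in KO and 959.6, 862 and 937 CPM in WT, and those after NKG2D 939.8, 718 and 815 CPM in KO and 966, 876 and 792 CPM in WT. The primed libraries lay above the fresh libraries in both genotypes, at 0.26 in KO (SE 0.117, adjusted p = 0.0753 by edgeR) and a described 0.31 in WT. Tapbp did not pass the edgeR test in any of the 7 tested comparisons, with adjusted p-values of 0.0753 to 0.936, while limma voom called it in 4 and DESeq2 in 1. It shares 904 exonic bases with Gm19412 on the opposite strand and 149 with Zbtb22 on its own strand.

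Nlrc5, the transactivator gene, had the lowest level and the largest change with NKG2D stimulation that both genotypes showed. It was at 45.9, 51.5 and 38.9 CPM in fresh KO and at 57.3, 41.7 and 45.3 CPM in fresh WT. Primed libraries held it at 27.4, 35.3 and 38.4 CPM in KO and at 41.6, 31.2 and 39 CPM in WT, below every fresh library of their genotype. Primed against fresh KO cells it gave -0.43 (SE 0.178, adjusted p = 0.0538 by edgeR), and the described WT difference was -0.37. The KO difference passed with the stricter filter (-0.42, adjusted p = 0.0465 by edgeR), with limma voom (-0.35, adjusted p = 0.0268) and in 4 of 18 omissions of a library. After NKG2D Nlrc5 was at 14, 10.7 and 11.9 CPM in KO and at 13.8, 11.4 and 9.6 CPM in WT, below every fresh and primed library. Against fresh cells, Nlrc5 fell by 1.90 (log2) in KO (SE 0.185, adjusted p = 2.32e-07 by edgeR) and by 2.04 in WT (SE 0.186, adjusted p = 8.26e-08), which are 0.268-fold and 0.242-fold. Against primed cells it fell by 1.47 in KO (SE 0.184, adjusted p = 8.71e-06), and the described difference in WT was -1.68. The stimulated-to-fresh responses differed by 0.15 (95% interval -0.39 to 0.68, adjusted p = 0.759 by edgeR), and the NKG2D-stimulated genotypes by 0.06 (95% interval -0.32 to 0.45, adjusted p = 0.858). The tested falls with NKG2D stimulation kept their call when any 1 library was left out. The genes of nearest profile were Pglyrp2, Dusp7 and Aoah, at root mean square differences of 0.24, 0.25 and 0.26, where Nlrc5 itself spread by 0.83.

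Per kilobase of exon, the order of mean levels in fresh KO cells was B2m at 6728 CPM, H2-D1 at 2166, H2-K1 at 1185, H2-T23 at 289.7, H2-Q7 at 245, Tapbp at 225, Tap2 at 83, Tap1 at 28.1 and Nlrc5 at 5.36. The length is that of all annotated exons merged, 4265 bases for H2-Q7 and 2889 for H2-T23. Their longest coding transcripts hold 1523 and 1472 bases, so the order of genes close in level depends on the length taken. In fresh WT cells B2m was at 5573 CPM per kilobase, H2-D1 at 3022 and H2-K1 at 971, and Nlrc5 was again lowest at 5.66. In the NKG2D-stimulated cells H2-D1 was at 1457 CPM per kilobase in KO and 404 in WT, where H2-K1 was at 758 in KO and 775 in WT, so the order of H2-D1 and H2-K1 by mean differed between the genotypes.

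Summed over the 22 classical and non-classical H2 heavy chain genes in the table, class I heavy chain transcripts came to 10828 to 13607 CPM in fresh KO and 12298 to 14342 CPM in fresh WT. They came to 7956 to 9521 CPM in primed KO and 3986 to 7625 CPM in primed WT, and to 7283 to 9287 CPM in NKG2D-stimulated KO and 4486 to 6571 CPM in NKG2D-stimulated WT. The genotypes thus did not overlap in either cultured condition with H2-D1 counted. Without H2-D1 the sums were 3160.3 to 5305 CPM in primed KO and 3287 to 4034 CPM in primed WT, and 3659.8 to 5969 CPM in NKG2D-stimulated KO and 3989.9 to 4838 CPM in NKG2D-stimulated WT, with overlap in both. H2-D1 made up 18% to 57.3% of the sum in NKG2D-stimulated KO libraries and 11.1% to 26.4% in NKG2D-stimulated WT libraries.

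**Figure D4:**
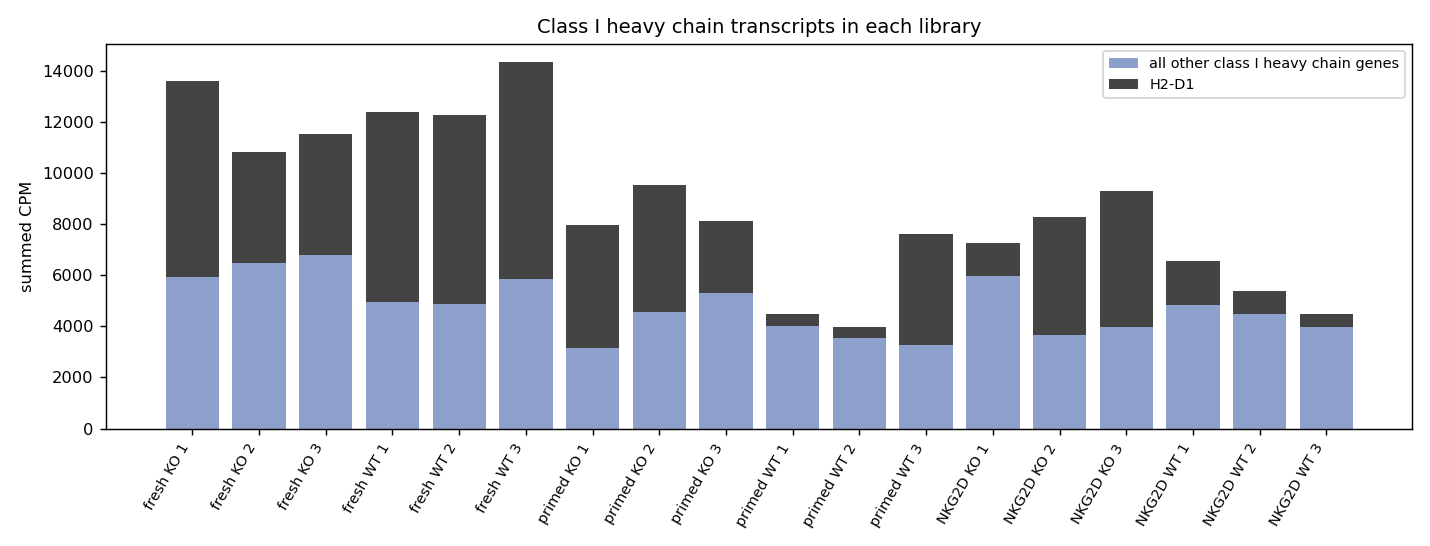
Summed CPM of the H2 class I heavy chain genes in each library, split into H2-D1 (dark) and all other heavy chain genes (light), with KO left of WT in each condition. The dark part is 10.1% of the sum in the lowest library and 60.4% in the highest.

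Counted over the 9 genes, 0 passed the test between genotypes in fresh cells by edgeR (1 at an unadjusted p under 0.05, 0 by DESeq2 and 2 by limma voom), where 0.0673% of all tested genes passed. In that comparison 5 of the 9 had all KO libraries above all WT libraries (H2-Q7, H2-T23, B2m, Tap1 and Tapbp), against 14.1% of all tested genes, and 0 had them below, against 12.8%. The median log2 fold change was 0.25 over the 9 genes and 0.01 over all tested genes. After NKG2D 1 of 9, B2m, was called lower in KO and 0 higher, where 9.47% of all genes were lower and 8.75% higher; the medians were -0.02 and 0.03. The difference of responses called 1 of 9, against 16.2% of all genes, with medians of -0.22 and 0.04. In primed cells, as a description, 1 of 9 (Tap2) had all KO libraries below all WT libraries, against 17.6% of all genes, and 0 had them above, against 13.9%; the medians were 0.09 and -0.02.

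Between conditions, priming of KO cells called 4 of 9 in either direction (Tap1 higher, and H2-K1, H2-Q7 and Tap2 lower), against 48.7% of all genes. NKG2D stimulation of primed KO cells called 1 of 9 higher (Tap2), against 18.4%, and 2 lower (B2m and Nlrc5), against 16.9%. NKG2D-stimulated against fresh KO cells called 1 of 9 higher (Tap1), against 20.6%, and 4 lower (H2-K1, H2-Q7, B2m and Nlrc5), against 20.0%. NKG2D-stimulated against fresh WT cells called 1 of 9 higher (Tap1), against 26.3%, and 3 lower (H2-D1, H2-Q7 and Nlrc5), against 26.1%. The medians over the 9 genes were -0.41, -0.09, -0.37 and 0.11 in these comparisons in turn, where those of all tested genes were -0.06, 0.04, -0.03 and -0.01. The KO comparisons share their libraries with each other, as do all comparisons with a group in common. In the WT comparisons with the primed libraries, which were not tested, Tap1 and Tapbp were above and H2-K1, H2-D1, H2-Q7 and Nlrc5 below all fresh libraries when primed, 2 and 4 of 9 against 31.3% and 32.8% of all genes. H2-K1 and H2-Q7 were above and Nlrc5 below all primed libraries after NKG2D, 2 and 1 of 9 against 19.4% and 19.9%.

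Other genes of the pathway were read from 3 lists. Of 15 genes of peptide supply and loading, 5 were lower and 0 higher in NKG2D-stimulated KO than WT cells, against 9.47% and 8.75% of all tested genes, with a median of -0.03. Calr, the chaperone calreticulin, was at 274, 228 and 221 CPM in KO and at 552, 493 and 417 CPM in WT (log2 fold change -1.02, SE 0.123, adjusted p = 3.85e-05 by edgeR). Psme2, a subunit of the PA28 proteasome activator, was at 243, 213 and 226 CPM in KO and at 422, 368 and 389 CPM in WT (-0.79, SE 0.104, adjusted p = 7.49e-05), and Lap3, leucine aminopeptidase, gave -0.97 (SE 0.131, adjusted p = 9.83e-05). In these genes the KO libraries lay below the WT libraries without overlap. The 3 genes were named for the smallest p in this comparison, so their separation supports nothing further. The stimulated-to-fresh response differed between genotypes in 6 of the 15, against 16.2% of all genes, 5 lower and 1 higher, with -1.37 for Calr (adjusted p = 0.000144), -1.10 for Psme2 (adjusted p = 0.000201) and -1.24 for Lap3 (adjusted p = 0.000451). In fresh cells 0 of the 15 passed by edgeR (7 at an unadjusted p under 0.05, 0 by DESeq2 and 7 by limma voom), with a median of 0.27.

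NKG2D-stimulated against fresh cells, 4 of these 15 rose and 6 fell in KO, against 20.6% and 20.0% of all genes, and 8 rose and 2 fell in WT, against 26.3% and 26.1%; the KO count of 10 was 5 without NKG2D-stimulated KO replicate 2 or 3. Priming of KO cells called 5 higher and 1 lower, where 48.7% of all genes were called in either direction, and NKG2D stimulation of primed KO cells 1 higher and 5 lower, against 18.4% and 16.9%. Blmh, the cytosolic bleomycin hydrolase that trims peptides, rose in stimulated against fresh cells by 1.00 in KO (adjusted p = 1.75e-07) and by 1.24 in WT (adjusted p = 9.7e-09), and Erap1, the trimming aminopeptidase of the endoplasmic reticulum, fell by 1.04 in stimulated against primed KO cells (log2 fold change -1.04, adjusted p = 1.43e-07).

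Of 13 tested genes of other class I chains, 3 were higher and 1 lower in NKG2D-stimulated KO than WT cells, against 8.75% and 9.47% of all tested genes, with a median of 0.42. Mr1, whose chain presents vitamin B metabolites to MAIT cells, was at 30.0, 29.3 and 30.1 CPM in KO and at 18.9, 19.5 and 17.1 CPM in WT (log2 fold change 0.69, SE 0.123, adjusted p = 0.00103 by edgeR). H2-T10 gave 0.42 (adjusted p = 0.0136) and H2-T24 -0.52 (adjusted p = 0.0135); the H2-T10 call was lost without NKG2D-stimulated KO replicate 3 or WT replicate 1, and the H2-T24 call without NKG2D-stimulated WT replicate 1 or 2, and both when fitted to their own libraries alone; H2-T10 also lost it without the filter on low counts (adjusted p = 0.145). The list's count of 4 fell to 1 without NKG2D-stimulated WT replicate 1. In fresh cells 0 of the 13 passed by edgeR (0 at an unadjusted p under 0.05, 0 by DESeq2 and 1 by limma voom), and 1 of 13, Mr1, against 16.2% of all genes, differed in the stimulated-to-fresh response (0.69, adjusted p = 0.0134; 0.118 without the filter on low counts). That count was 2 without NKG2D-stimulated WT replicate 2. Priming of KO cells called 1 higher and 6 lower, against 48.7% of all genes in either direction, among them Cd1d1, a chain that presents lipids, at -2.23 (adjusted p = 5.55e-08). Stimulation of primed KO cells called 6 higher and 2 lower, against 18.4% and 16.9%. Stimulated against fresh cells, 3 were higher and 3 lower in KO, against 20.6% and 20.0%, and 2 higher and 5 lower in WT, against 26.3% and 26.1%; the WT count of 7 fell to 4 without fresh WT replicate 3 and to 3 without NKG2D-stimulated WT replicate 2.

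Of 16 tested regulators of class I genes, 2 were higher and 3 lower in NKG2D-stimulated KO than WT cells, against 8.75% and 9.47% of all tested genes, with a median of 0.09. The count of 5 fell to 2 without NKG2D-stimulated KO replicate 2 or 3 or WT replicate 1 and to 1 without WT replicate 2. Nfyb, a subunit of the NF-Y factor that binds the Y box, gave -0.43 (adjusted p = 0.00528 by edgeR; 0.0538 when fitted to its own libraries alone). Rfx5, the RFX subunit that binds DNA, gave 0.88 (adjusted p = 0.0218), a call lost without NKG2D-stimulated KO replicate 2 or 3 or WT replicate 2. Jak1, a kinase of cytokine and interferon receptors, gave 0.88 (adjusted p = 0.0263), a call lost without NKG2D-stimulated KO replicate 2 or 3 or WT replicate 1, 2 or 3. In fresh cells 0 of the 16 passed by edgeR (3 at an unadjusted p under 0.05, 0 by DESeq2 and 3 by limma voom). The stimulated-to-fresh response differed in 3 higher and 2 lower, against 16.2% of all genes in either direction, a count of 5 that fell to between 1 and 3 without fresh KO replicate 1, 2 or 3, fresh WT replicate 2 or 3, NKG2D-stimulated KO replicate 2 or 3 or NKG2D-stimulated WT replicate 1 or 2. Priming of KO cells called 4 higher and 7 lower, against 48.7% of all genes in either direction, led by Ifngr1, the interferon-gamma receptor chain, at -1.40 (adjusted p = 1.52e-08). Stimulation of primed KO cells called 6 higher and 3 lower, against 18.4% and 16.9%. Against fresh cells, stimulation called 6 higher and 4 lower in KO, against 20.6% and 20.0%, and 5 higher and 6 lower in WT, against 26.3% and 26.1%. Stat2, which acts with Irf9 in interferon signalling, was higher by 1.92 in KO (adjusted p = 1.45e-07) and by 1.62 in WT (adjusted p = 8.93e-07).

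In the authors' deposited table for NKG2D-stimulated KO against WT cells, the log2 fold change of H2-D1 was 2.35 (adjusted p = 6.76e-05), B2m -0.34 (adjusted p = 0.000751) and H2-K1 -0.29 (adjusted p = 0.0127). In the authors' deposited table for fresh cells, H2-K1, H2-Q7, H2-T23 and B2m had adjusted p-values of 0.0462, 0.00961, 0.0343 and 0.0112, with log2 fold changes of 0.29, 0.42, 0.28 and 0.31. The edgeR fit here called B2m alone of these, in the stimulated cells. The authors' tables hold 13578 genes, against 14864 tested here, and their p-values come from their own fit. Limma voom here also called H2-D1 (2.36, adjusted p = 0.000115) and H2-K1 (-0.29, adjusted p = 0.0469) in stimulated cells. In fresh cells limma voom called H2-Q7 (0.43, adjusted p = 0.0237) and B2m (0.32, adjusted p = 0.00894), but not H2-K1 or H2-T23.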

How the data were processed

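The measurements were gene counts from RNA sequencing of 18 libraries, prepared per the labels' protocols with an RNeasy kit and SMARTer chemistry. The build mm10 and the tools bcl2fastq, DRAGEN and edgeR are named, per the submitters' processing notes, with no role given; the sources used here give neither versions nor annotation nor strand setting. Expected counts were deposited, that is, unscaled estimates of the reads of each gene, and 30% of the values above 0 were not whole. Whole counts had been planned for, so the values were rounded and the same test used. Of 55774 entries, repeats of 168 identifiers held the same values, and 1 of each was kept. The authors also deposited log2 levels, log2 fold changes and p-values, which were used only where named.

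CPM were computed with TMM factors. The test was edgeR 4.0.16 (quasi-likelihood, R 4.3.3) on 14864 genes kept by its expression filter, with 1 mean per group over all libraries, 12 residual degrees of freedom and Benjamini-Hochberg adjustment over all tested genes at 0.05. Intervals are 95%. PCR copies carry no molecular barcodes, so precision covers counting and library spread. Alternatives were RLE factors, no filter, a stricter filter (CPM of 5 in 3 libraries), DESeq2 1.42.0, limma 3.58.1 voom with sample quality weights, fits to a comparison's own libraries, blocks on the replicate number and leaving out each library. Deviations of same-numbered libraries were correlated to look for pairing, but the values were too weak to show whether the replicate numbers pair libraries. The labels give no pairing. The scripts were tested on simulated data. The 9 genes and the lists were chosen with earlier results of these data known, and within a list up to 3 called genes of smallest p in a comparison, or genes that share sequence with a member, were named, and for each of the 9 genes the 3 nearest profiles among genes whose log2 CPM averaged 3 or more; Pdia3 falls outside that rule for the profiles. Promoters are the 250 bases before RefSeq starts. H2-Q8, H2-Q9 and H2-T9 were not analysed here. The result of 1 gene that the rule names is not reported here.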

Additional observations from a re-analysis of the deposited data

Results flagged for a closer look

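The response of B2m from fresh to NKG2D-stimulated cells differed between genotypes, KO minus WT, by a log2 value of -0.66 (SE 0.173; adjusted p = 0.0154 by edgeR). It was drawn out because the test of the difference itself passed the threshold, a call lost without fresh KO replicate 2, fresh WT replicate 2 or NKG2D-stimulated WT replicate 3. B2m was lower after stimulation in KO cells (-0.37, adjusted p = 0.0213 by edgeR, in all 3 libraries). In WT cells the value was 0.29 (adjusted p = 0.0545 by edgeR), which missed the threshold, with all 3 stimulated libraries above the fresh ones. No group had 4 or more libraries, so no single library could be tested for standing apart.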

How the results depend on the processing

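Under settings other than leaving out a library, 437 of 477 values of the tested comparisons kept direction and side of the threshold, 8 lost the call and 32 gained it; a sign change of a value uncalled in both fits was not counted. None with a call changed sign. Of 189 described values, 2 moved by more than the spread. The count of called members was 0 between fresh genotypes, and 2 with limma voom and 1 with the comparison's libraries alone. Between NKG2D-stimulated genotypes it was 1, and 2 without a filter and 3 with limma voom. For NKG2D-stimulated against primed KO cells it was 3, and 5 with limma voom and 1 with the comparison's libraries alone. For the difference of responses it was 1, and 2 without a filter, 6 with limma voom and 2 with the comparison's libraries alone. H2-D1 in NKG2D-stimulated KO against WT was called without a filter (1.83), with limma voom (2.36, adjusted p = 0.000115) and with the comparison's libraries alone (1.85, adjusted p = 0.0425). The cause of these gains was not tested. The fit to the comparison's libraries leaves out primed WT replicate 3, whose H2-D1 level was among the values that chose the genes. Its p-value for H2-D1 therefore supports nothing. Leaving out each library gave 0 to 0 called members between fresh genotypes, 0 to 2 between stimulated genotypes, 1 to 5 for priming of KO cells, 1 to 3 for stimulation of primed KO cells, 3 to 6 for stimulated against fresh WT, 3 to 5 for stimulated against fresh KO and 0 to 2 for the difference of responses; over these, 42 of 1134 values lost a call and 21 gained 1. The described medians ranged from -0.05 to 0.19 for primed KO against WT, from -0.07 to 0.07 for primed against fresh WT and from -0.01 to 0.10 for stimulated against primed WT.

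Correlations of deviations from the group means between same-numbered libraries of 1 genotype were -0.267 to 0.179, with 6 of 18 over 0.1. All 3 were over 0.1 for fresh against primed KO (0.155, 0.15 and 0.124) and not for any other tested comparison. Libraries of other numbers in 1 genotype were over 0.1 in 10 of 36 pairs and reached 0.385. The correlations therefore cannot show whether the replicate numbers pair the libraries. With the replicate block over all libraries the counts were 0, 1, 3, 3, 4, 5 and 1 for the 7 tested comparisons in the order fresh genotypes, stimulated genotypes, primed KO, stimulated against primed KO, stimulated against fresh WT, stimulated against fresh KO and difference of responses, and the medians 0.09, -0.01 and 0.05. The replicate block within genotype gave 3, 2, 4 and 5 for the middle 4. Tap1 in primed against fresh KO lost its call under both blocks (adjusted p = 0.0523 and 0.0743 by edgeR), and Tap2 in NKG2D-stimulated against primed KO under the block within genotype (0.50, adjusted p = 0.061).

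Over all genes, the call count between fresh genotypes was 10 and reached 564 without a filter, 137 with DESeq2, 780 with the comparison's libraries alone and 1900 with limma voom. Limma voom also gave 6256, against 2708, between stimulated genotypes and 5691, against 2411, for the difference of responses; the comparison's libraries alone gave 3450, against 5248, for stimulated against primed KO. With 3 libraries a group and H2-D1 spread up to 9.75-fold within a group, differences in H2-D1 between cultured groups are known only within wide intervals.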
